A study of Mus musculus with 18 samples.

Results

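*Trf*, which encodes the iron carrier transferrin, was examined with 7 further genes of iron handling in bulk RNA-seq of mouse dorsal root ganglia (DRG) at levels L3–L5. The 7 were *Tfrc* and *Slc11a2* (uptake), *Fth1* and *Ftl1* (storage), *Slc40a1* and *Cp* (export) and *Hmox1* (breakdown of heme). They were taken by symbol, and all 8 were found among the 36737 genes of the table. *Trf* was chosen by its value in these same data, as the gene with the second smallest p-value of the 20659 genes tested between fracture and sham mice. Its differences between groups are therefore given as a description with no test, also where only the sham or only the fracture mice enter a comparison. The other 7 genes were chosen by their role, with earlier results of these data known.

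The libraries came from 18 CD1 mice, an outbred strain, in 3 groups of 6 with 3 males and 3 females each. The Sham group had sham surgery, the Fracture group had a tibial fracture with vehicle, and the Fracture+PDX group had a tibial fracture with PDX, protectin DX, a lipid mediator made from docosahexaenoic acid. The ganglia of both fracture groups were taken on day 3, and the day is not named for the sham group. No allele or transgene is named for any group. A single library was made from the poly(A) RNA of each mouse, with 63235040 to 82824942 reads counted on genes. The 8 genes had between 214 (*Slc40a1*) and 195866 (*Fth1*) counts in a library, and all 8 passed the filter on low counts in every comparison. Within a gene, levels are given as CPM, the share of the counted reads after TMM scaling, and between genes as FPKM, which also divides by the length of the transcript. A gene was called at an adjusted p-value under 0.05, from edgeR's quasi-likelihood test with sex as a covariate and Benjamini-Hochberg adjustment over all genes tested. The sensory neuron markers *Avil*, *Prph*, *Isl1* and their kind summed to 11350 CPM or more in every library, so the tissue label matched its markers.

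Iron travels in the extracellular fluid bound to transferrin, which is taken into cells by the transferrin receptor. In the endosome, iron is reduced and leaves through the transporter DMT1, the product of *Slc11a2*. Iron not in use is held inside shells of ferritin heavy and light chains (*Fth1* and *Ftl1*), and surplus leaves the cell through ferroportin (*Slc40a1*), helped by the ferroxidases ceruloplasmin (*Cp*) and hephaestin (*Heph*). Heme oxygenase 1 (*Hmox1*) frees iron from heme. In peripheral nervous tissue transferrin is best known from glia, and ferroportin and heme oxygenase 1 are abundant in macrophages that clear red cells.

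Several of these mRNAs carry an iron-responsive element, a hairpin read by the iron regulatory proteins encoded by *Aco1* and *Ireb2*. In a 5' UTR the bound protein blocks translation, and in the 3' UTR of *Tfrc* it protects the mRNA from decay. The elements are shown as a description of the sequence. Several of these genes of iron handling were known to carry one, so the share found among them is not a test. The UTRs of the GENCODE M21 transcripts on GRCm38 (mm10) were searched on the transcript strand for the loop CAGTGN, preceded by 5 bases that pair with the 5 bases after it (G with U allowed), a bulged C and a lower stem with at least 4 of 5 pairs. Such an element was found in 4 of the 8 genes and in 13 of 21901 protein-coding genes (0.0594%). Each sequence is written 5' to 3' as DNA, with the 6 bases of the loop in capitals.
*Fth1*, 5' UTR, chr19:9982733-9982759, plus strand: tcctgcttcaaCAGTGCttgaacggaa
*Ftl1*, 5' UTR, chr7:45459780-45459806, minus strand: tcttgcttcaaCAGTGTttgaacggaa
*Slc40a1*, 5' UTR, chr1:45925466-45925492, minus strand: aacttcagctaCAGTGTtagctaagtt
*Tfrc*, 3' UTR, chr16:32631220-32631246, plus strand: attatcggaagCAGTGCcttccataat
*Tfrc*, 3' UTR, chr16:32631599-32631625, plus strand: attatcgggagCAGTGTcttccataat
*Tfrc*, 3' UTR, chr16:32631664-32631690, plus strand: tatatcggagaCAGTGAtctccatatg
*Tfrc*, 3' UTR, chr16:32631711-32631737, plus strand: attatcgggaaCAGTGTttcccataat
By this search, the ferritin genes and *Slc40a1* held 1 element each, before the coding sequence, and *Tfrc* held 4 after it. Elements that depart from these letters and pairs are missed, so the counts may not be complete. No match to these letters and pairs was found in the UTRs of *Trf*, *Slc11a2*, *Cp* or *Hmox1*. *Slc11a2* is known to carry an element in the 3' UTR of some of its transcripts, with an extra unpaired base that this search does not allow. A match is a description of the sequence and not a measured site of binding.

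The 8 genes spanned a wide range of levels in sham mice. Per length, the ferritin chains were highest, with 528 ± 61.7 FPKM for *Fth1* and 407 ± 12.9 FPKM for *Ftl1* (SD, n = 6 mice for each gene). *Trf*, at 38.4 ± 2.74 FPKM, followed, 10.6-fold under *Ftl1*. *Hmox1* (21.2 ± 2.30 FPKM) and *Tfrc* (18.6 ± 1.40 FPKM) came next, and their ranges over the mice overlapped. *Cp* (6.56 ± 0.75 FPKM) and *Slc11a2* (4.04 ± 0.30 FPKM) were lower, and *Slc40a1*, the exporter, was lowest with 0.677 ± 0.085 FPKM. Every other pair of neighbors in this order was separated in all 6 sham mice.

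**Figure D1:**
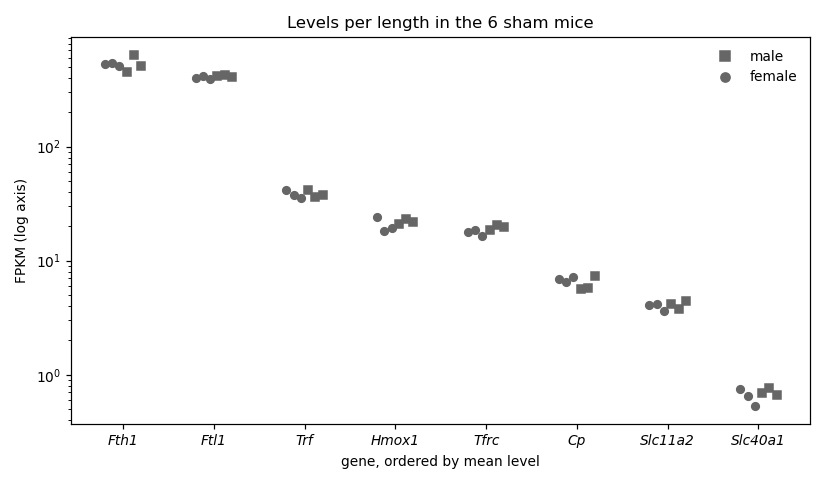
Levels of the 8 genes in sham mice as FPKM on a log axis, ordered by mean, with 1 point per mouse (squares, males; circles, females). *Fth1* and *Ftl1* stand far above *Trf*, *Hmox1* and *Tfrc* overlap, and *Slc40a1* lies below 1 FPKM in all 6 mice.

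*Trf* (chr9:103204001-103230444, minus strand) was lower after fracture in every mouse, with and without PDX. Its level was 131 to 153 CPM in sham mice with a median of 137. In fracture mice it was 86.5 to 109 CPM with a median of 97.7. In fracture+PDX mice it was 85.8 to 127 CPM with a median of 93.8. Neither fracture group overlapped the sham group, and the fracture+PDX mice were spread more widely than the other 2 groups. The mean in fracture mice differed by -30.2% from that of sham mice, a log2 fold change of -0.52 (SE 0.053), which is the value that chose the gene and is not tested here. The 6 fracture+PDX mice were not used for that choice, but the sham mice they are compared with were. In fracture+PDX mice the log2 fold change of *Trf* was -0.47 (SE 0.096), also without a test.

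Both sexes had lower *Trf* after fracture. In males the difference of the mean log2 CPM from sham was -0.62 in fracture and -0.53 in fracture+PDX mice. In females it was -0.42 and -0.45. With 3 mice per sex and group, neither fracture group overlapped the sham group in either sex. This follows from the separation of the whole groups and adds nothing to it. The difference between the sexes in the fracture effect is measured by the interaction of sex and fracture, which was 0.19 for *Trf* on the log2 scale. It has no test here, because it comes from the contrast that chose the gene.

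**Figure D2:**
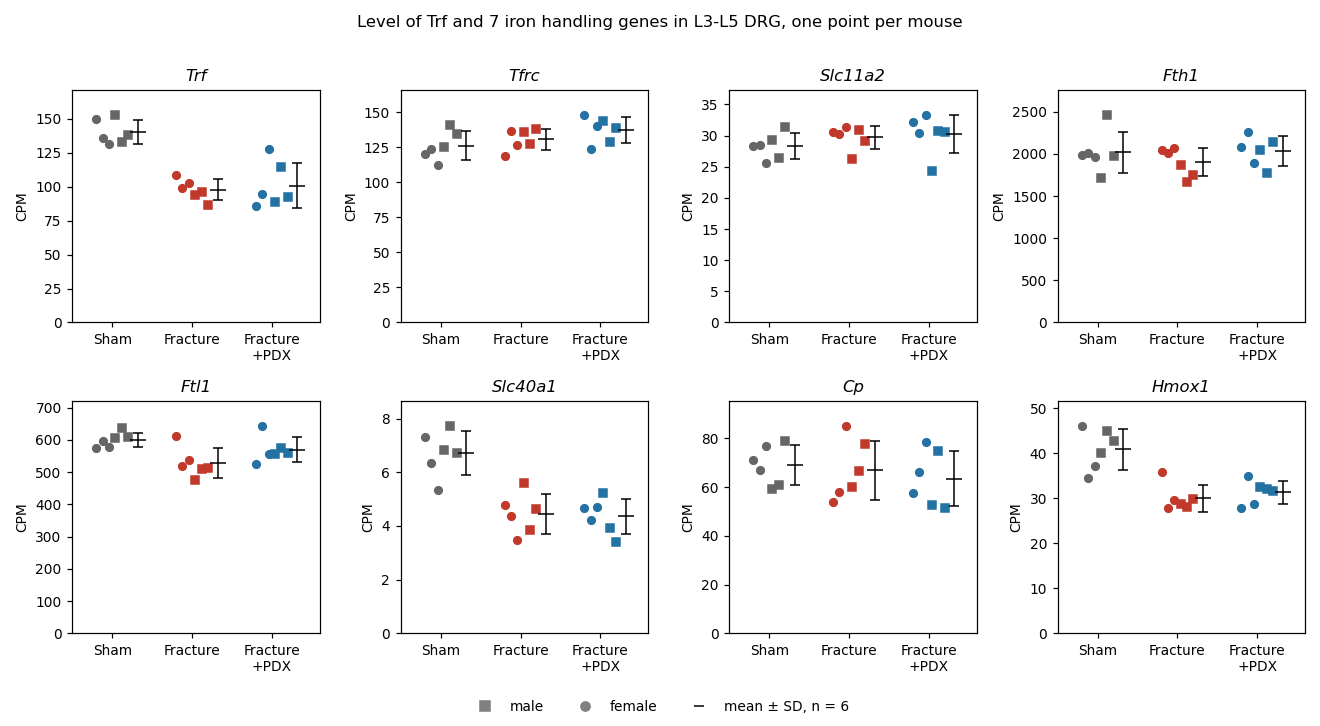
CPM of the 8 genes in each of the 18 mice by group (squares, males; circles, females), with the mean ± SD of 6 mice in black; every axis starts at 0. *Trf* is separated between sham and both fracture groups, *Slc40a1* and *Hmox1* are lower after fracture with little overlap, and *Tfrc*, *Slc11a2*, *Fth1* and *Cp* overlap broadly.

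The uptake genes downstream of transferrin did not pass the test after fracture. *Tfrc*, the transferrin receptor, had 112 to 141 CPM in sham mice (median 125), 119 to 138 in fracture mice (median 132) and 124 to 148 in fracture+PDX mice (median 140). The 3 groups overlapped, and 2 fracture+PDX mice lay above every sham mouse. The log2 fold change against sham was 0.05 in fracture mice (95% interval -0.04 to 0.14, adjusted p = 0.576) and 0.13 in fracture+PDX mice (0.02 to 0.24, adjusted p = 0.199). *Slc11a2*, the endosomal iron transporter, had a median of 28.4 CPM in sham, 30.4 in fracture and 30.6 in fracture+PDX mice, and its groups overlapped. Its log2 fold change was 0.07 after fracture (-0.05 to 0.20, adjusted p = 0.571) and 0.10 after fracture with PDX (-0.05 to 0.26, adjusted p = 0.515).

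Of the ferritin chains, *Ftl1* lay close to the threshold after fracture and *Fth1* did not. *Ftl1* had 576 to 635 CPM in sham mice (median 602), 474 to 613 in fracture mice (median 517) and 527 to 643 in fracture+PDX mice (median 559). In fracture mice 5 of 6 lay below every sham mouse, and the Fracture female 1 was within the sham range. The log2 fold change was -0.19 (SE 0.049, 95% interval -0.29 to -0.08, adjusted p = 0.0603). *Ftl1* passed the threshold without the Fracture female 1 (log2 fold change -0.23, adjusted p = 0.0125), in DESeq2 (adjusted p = 0.0119) and when all 18 libraries were fitted together (adjusted p = 0.0456). It was called under only 2 of 9 alternatives, with adjusted p-values up to 0.1325. Of 12 fits that left out a mouse, 1 called it, with adjusted p-values up to 0.134. In fracture+PDX mice its log2 fold change against sham was -0.07 (-0.16 to 0.02, adjusted p = 0.427), and without the Fracture+PDX female 2, the highest mouse of its group, it was -0.11 (adjusted p = 0.0346). That was 1 call in 12 fits that left out a mouse, with adjusted p-values up to 0.643. In this comparison *Ftl1* was called under 0 of 9 alternatives.

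*Fth1* had medians of 1981 CPM in sham, 1941 in fracture and 2063 in fracture+PDX mice, with 1708 to 2458 in sham mice alone. Its log2 fold change against sham was -0.09 after fracture (-0.25 to 0.08, adjusted p = 0.618) and 0.02 after fracture with PDX (-0.16 to 0.19, adjusted p = 0.949). The ferritin genes have near copies that can share reads with them. The copies in the table held few counts beside their parents, at most 2.28% of those of *Ftl1* (*Ftl1-ps1*) and 0.335% of those of *Fth1* (*Fthl17a*).

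*Slc40a1* (chr1:45908068-45926523, minus strand), the only known iron exporter of mammalian cells, fell after fracture in both groups. It had 5.34 to 7.72 CPM in sham mice (median 6.78), 3.48 to 5.61 in fracture mice (median 4.51) and 3.42 to 5.23 in fracture+PDX mice (median 4.45). In fracture mice 5 of 6 lay below every sham mouse, and in fracture+PDX mice all 6 did. The log2 fold change was -0.59 in fracture mice (SE 0.118, 95% interval -0.84 to -0.34, adjusted p = 0.0207) and -0.61 in fracture+PDX mice (SE 0.121, -0.87 to -0.35, adjusted p = 0.0124). The mean differed from that of sham mice by -33.6% in fracture and by -35.0% in fracture+PDX mice. This is the gene with the lowest counts of the 8, and the call in fracture mice did not hold without the Sham male 2 (log2 fold change -0.56, adjusted p = 0.0540). Nor did it hold with a block for mice that share sex and number (adjusted p = 0.0501).

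*Cp*, which oxidizes the exported iron, had medians of 69.2 CPM in sham, 63.4 in fracture and 62.0 in fracture+PDX mice. The mice of 1 group differed more than the group means, with 53.8 to 85.1 CPM in fracture mice. Its log2 fold change was -0.05 after fracture (-0.31 to 0.22, adjusted p = 0.889) and -0.12 after fracture with PDX (-0.36 to 0.13, adjusted p = 0.654).

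*Hmox1* (chr8:75093621-75100589, plus strand), which breaks heme into iron, carbon monoxide and biliverdin, fell in both fracture groups. It had 34.4 to 46.0 CPM in sham mice (median 41.3), 27.8 to 35.8 in fracture mice (median 29.1) and 27.8 to 35.0 in fracture+PDX mice (median 31.9). In each fracture group 5 of 6 mice lay below every sham mouse. The log2 fold change was -0.45 in fracture mice (SE 0.079, 95% interval -0.62 to -0.28, adjusted p = 0.0140) and -0.38 in fracture+PDX mice (SE 0.072, -0.53 to -0.22, adjusted p = 0.0104). Both calls held when any single mouse was left out. The sexes were alike in direction, with differences of the mean log2 CPM of -0.56 in males and -0.33 in females after fracture, and the groups overlapped in females.

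Among the 7 genes other than *Trf*, 2 were called in fracture against sham mice, both lower, where 2.92% of all genes tested were called and 1.83% were called lower. Both counts depend on the fit: 1 of the 7 was called without the Sham male 2 and 3 without the Fracture female 1, and DESeq2 called 3 of the 7, with 606 genes higher and 905 lower in all. With a block for mice that share sex and number, 1 of the 7 was called, with 25 genes higher and 93 lower in all. In fracture+PDX against sham mice, the same count of 2 of 7 was called (*Slc40a1* and *Hmox1*), both lower, where 4.5% of all genes were called and 2.32% were called lower. Both comparisons use the same 6 sham mice, so they are not independent of each other. By the iron-responsive elements, the called genes were mixed. Of the 3 genes with an element in the 5' UTR, *Slc40a1* was called lower in both comparisons and *Fth1* and *Ftl1* were not called, while *Trf* and *Hmox1* held no match.

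**Figure D3:**
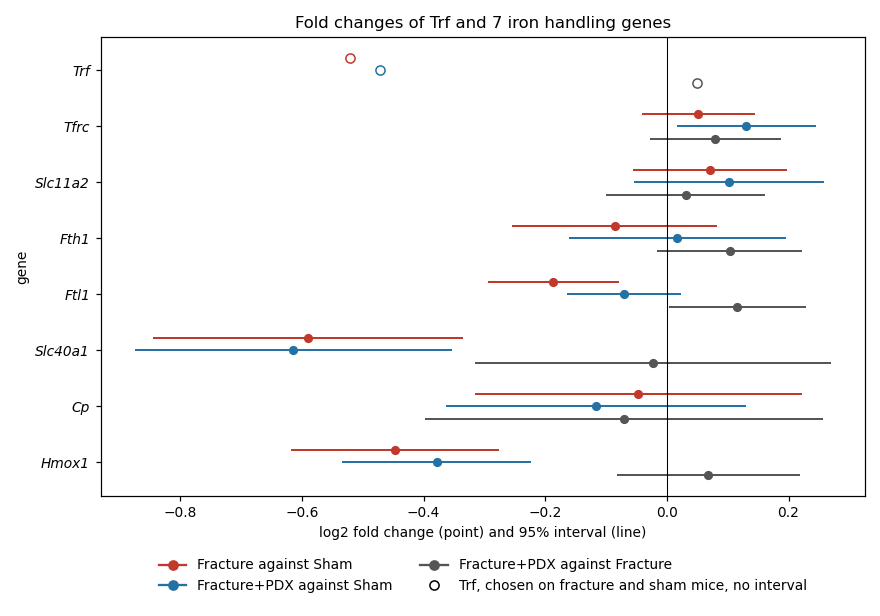
Log2 fold changes of the 8 genes (points) with 95% intervals (lines) in the 3 group comparisons, 6 mice per group. The open points are *Trf*, which was chosen on the fracture and sham mice and has no interval. The intervals of *Slc40a1* and *Hmox1* lie below 0 against sham in both fracture groups, and those of PDX against fracture lie around 0 except for *Ftl1* (0.01 to 0.23).

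PDX treatment was compared with vehicle in mice with a fracture, which is the question of the treatment's effect in the injured animal. None of the 7 genes other than *Trf* was called, and 0% of the 20562 genes tested were called by edgeR, with 1113 genes at an unadjusted p-value under 0.05. DESeq2 called 9 genes higher and 6 lower in this comparison. *Trf* had a log2 fold change of 0.05 (SE 0.093), given with no test because these fracture mice were used to choose it. *Hmox1* had 0.07 (-0.08 to 0.22, adjusted p = 0.975) and *Slc40a1* had -0.02 (-0.31 to 0.27, adjusted p = 0.998). For both, the size of the difference between fracture and sham mice lies outside this interval. The largest difference was that of *Ftl1*, 0.12 higher with PDX (0.01 to 0.23), at an unadjusted p = 0.0416 and an adjusted p = 0.912. *Tfrc* (0.08), *Fth1* (0.10), *Slc11a2* (0.03) and *Cp* (-0.07) had adjusted p-values between 0.917 and 0.991.

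The sexes were compared over all 18 mice, with the group as a covariate. None of the 8 genes was called between females and males, where 0.291% of 21340 genes were called. The log2 differences, female minus male, ran from -0.08 (*Tfrc*) to 0.08 (*Cp*). The fracture effect did not differ detectably between the sexes for any of the 7 genes other than *Trf*, with 0% of all genes called for the interaction by edgeR, 1488 at an unadjusted p-value under 0.05, and 27 and 38 called in either direction by DESeq2. *Ftl1* came closest, with an interaction of 0.23 (95% interval 0.06 to 0.40, unadjusted p = 0.0121, adjusted p = 0.616). Its difference of the mean log2 CPM after fracture was -0.30 in males, with no overlap of the groups, and -0.07 in females, with overlap. For the interaction of sex and PDX, 0.00486% of all genes were called, and none of the 7 genes other than *Trf* was (adjusted p = 0.998 for each).

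The other genes of iron handling were examined from a list of 77 genes by role, of which 76 were in the table. Leaving out the 8 genes, 67 were tested in fracture against sham mice, and 1 was called, lower, a share no larger than the 2.92% called and 1.83% called lower among all genes. This gene was *Flvcr2*, which encodes a membrane transporter first described for heme. It had 3.33 to 5.15 CPM in sham mice, 2.43 to 3.99 in fracture mice and 2.85 to 3.77 in fracture+PDX mice. Its log2 fold change was -0.58 after fracture (SE 0.142, adjusted p = 0.0449) and -0.52 after fracture with PDX (SE 0.121, adjusted p = 0.0284). The median log2 fold change of the 67 genes was -0.001, beside 0.002 for all genes tested.

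In fracture+PDX against sham mice, 66 of these other genes were tested, with 2 called higher and 1, *Flvcr2*, called lower, a share close to the 4.5% called among all genes. *Blvrb*, a biliverdin reductase, rose by a log2 fold change of 0.23 (SE 0.043, adjusted p = 0.00954), from a median of 25.5 CPM in sham to 30.0 in fracture+PDX mice, and the groups did not overlap. *Srxn1*, sulfiredoxin, a target of the factor Nrf2, rose by 0.31 (SE 0.055, adjusted p = 0.00793), from a median of 303 to 382 CPM, also without overlap. In fracture mice with vehicle, *Blvrb* (0.16, adjusted p = 0.0519) and *Srxn1* (0.20, adjusted p = 0.0571) were in the same direction and not called. The median log2 fold change of the 66 genes was 0.003, beside -0.001 for all genes tested. In PDX against fracture, none of 66 was called.

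By role, the uptake genes other than *Trf* had a median log2 fold change of -0.001 after fracture, with none of 11 called, and the storage genes one of -0.03, with none of 5 called. The export genes had a median of -0.26, with 1 of 4 called. The genes of heme breakdown and transport had a median of -0.01 with 2 of 12 called, and the genes of heme synthesis one of -0.04 with none of 9 called. None of 9 regulators of iron, 10 genes of mitochondrial iron, 9 targets of Nrf2, a factor that also acts on *Hmox1*, and 5 genes of the defense against lipid peroxides was called after fracture. The calls by role are those of *Slc40a1*, *Hmox1* and *Flvcr2* already given, where 2.92% of all genes were called.

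Single genes with a role close to that of the 8 were at these levels in sham mice. *Hmox2*, the constitutive heme oxygenase, had a median of 73.8 CPM and a log2 fold change after fracture of 0.05 (adjusted p = 0.471). *Ncoa4*, the receptor that delivers ferritin to lysosomes, had a median of 106 CPM (0.05, adjusted p = 0.573). *Ireb2*, at 88.0 CPM (0.04, adjusted p = 0.689), and *Aco1*, at 37.3 CPM (-0.10, adjusted p = 0.284), encode the iron regulatory proteins. *Slc39a14*, which imports iron not bound to transferrin, had 24.3 CPM (-0.17, adjusted p = 0.222). *Tfr2*, the second transferrin receptor, had 2.99 CPM (0.11, adjusted p = 0.779). *Heph* had 1.48 CPM in sham, 1.17 in fracture and 0.615 in fracture+PDX mice, with a log2 fold change of -1.01 in the last (95% interval -1.60 to -0.42, adjusted p = 0.0553). *Hamp*, the hormone hepcidin that removes ferroportin from the membrane, was between 0 and 0.179 CPM in all mice and was too low to be tested.

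**Figure D4:**
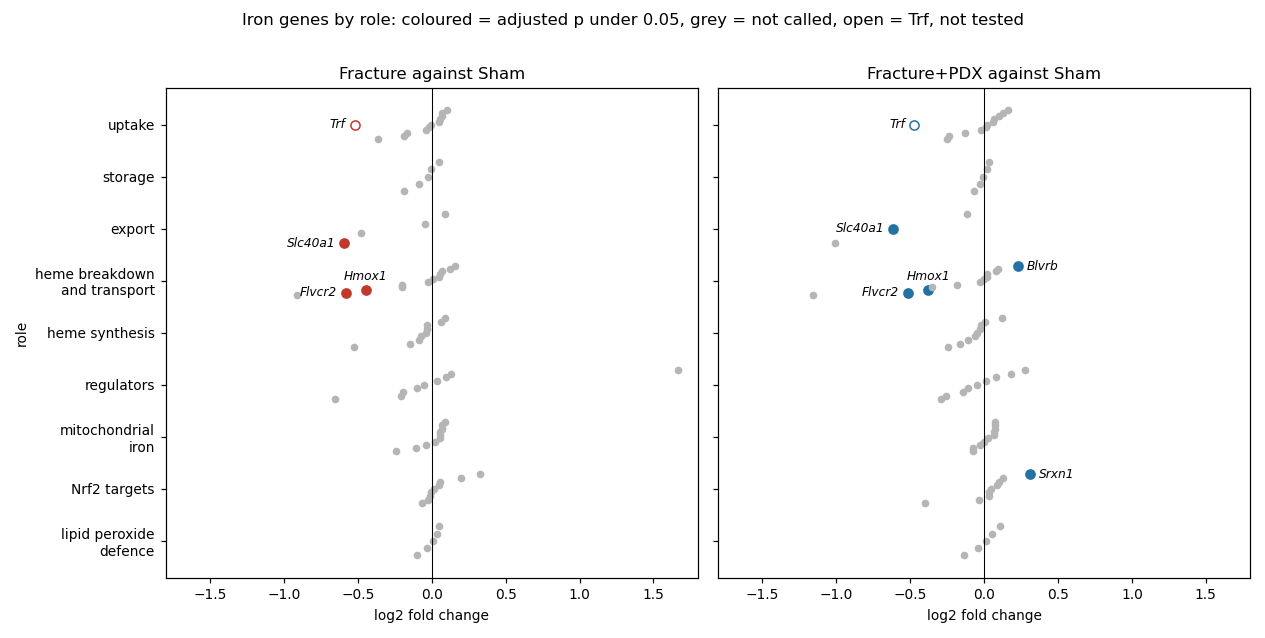
Log2 fold changes of the iron genes by role in fracture (left) and fracture+PDX mice (right) against the same 6 sham mice, with 1 point per gene. Called genes are colored and named, and *Trf* is an open point because it was not tested. *Slc40a1*, *Flvcr2* and *Hmox1* are called in both panels, and most other points lie within 0.2 of 0.

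The levels of the other 7 genes were set against that of *Trf* in the same mouse, after the mean of each group and sex was subtracted from log2 CPM, so that the deviations within each group and sex add up to 0. No relation passed adjustment over the 7. Since subtracting the means ties the deviations together, permuting all 18 gives p-values that are too small, and an exact permutation of mice within group and sex (46656 arrangements) was added after seeing the data. *Fth1* came closest and was opposite in direction, with Pearson's r = -0.59 (permutation p = 0.0114, adjusted p = 0.0798) and Spearman's rho = -0.62 (permutation p = 0.00751, adjusted p = 0.0526) over n = 18 mice. Within group and sex, the exact permutation p was 0.0343 for r (adjusted p = 0.24) and 0.0405 for rho (adjusted p = 0.28). Without the 2 mice farthest from the median, r was -0.44. *Tfrc* had r = -0.36 and rho = -0.46 (exact permutation p = 0.362 for r within group and sex), and r was -0.49 without the 2 mice farthest from the median. *Slc11a2* (r = 0.42, rho = 0.51) and *Cp* (r = 0.38, rho = 0.30) had exact permutation p-values of 0.150 and 0.197 for r within group and sex, and r was 0.32 and 0.04 without the 2 mice farthest from the median. For *Hmox1* (r = 0.08, exact permutation p = 0.855) and *Slc40a1* (r = 0.01, exact permutation p = 0.962), which were lower in the same fracture groups, r was near 0 within groups, and it was 0.10 for *Ftl1* (exact permutation p = 0.873).

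The genes whose deviations were most like those of *Trf* over the 18 mice, of 12378 genes with a mean of at least 5 CPM, were *Smad7* (r = 0.89), *Col18a1* (0.86), *Gpc4* (0.86), *Ly6e* (0.85), *Kri1* (0.85) and *Parp9* (0.83). These are the highest of many and are given as a description with no test. *Smad7* encodes an inhibitor of TGF-β signaling, *Col18a1* a collagen of basement membranes, and *Gpc4* a glypican, a heparan sulfate proteoglycan of the cell surface. Their log2 fold changes after fracture ran from -0.26 (*Ly6e*) to 0.08 (*Kri1*), smaller than that of *Trf*. Of the 200 genes most like *Trf*, 1.62% of those ranked, 2 were in the iron lists (*Steap2* and *Ncoa4*), and none was among the cell type markers that could be ranked. Most markers of some types were under 5 CPM and were not ranked, so that 1 of 8 hepatocyte, 2 of 8 oligodendrocyte, 1 of 4 choroid and 1 of 5 adipocyte markers entered.

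In bulk tissue, fewer cells of a type and less RNA per cell cannot be told apart, so the markers of the cells in and around the ganglion were read beside the 8 genes. Counts of markers called are to be read against all genes, of which 2.92% were called after fracture and 4.5% after fracture with PDX. Of 10 macrophage markers, 2 were called lower after fracture, *Csf1r* (log2 fold change -0.47, adjusted p = 0.00734) and *Adgre1* (-0.56, adjusted p = 0.0139), and the median of the 10 was -0.19. Their summed level was 109 to 133 CPM in sham, 84.0 to 112 in fracture and 83.0 to 117 in fracture+PDX mice. In fracture+PDX against sham mice, 1 of the 10 was called lower, *Csf1r* (-0.34, adjusted p = 0.00431). Macrophages are a known source of *Slc40a1* and *Hmox1*, and the part of these markers in the lower levels of both genes was not tested.

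Endothelial *Cdh5* was lower after fracture (-0.73, adjusted p = 0.0117) and after fracture with PDX (-0.74, adjusted p = 0.00216), as 1 of 6 markers in each. The median of the 6 was -0.14 and -0.16. *Cdh5* alone had a median of 38.4 CPM in sham and 22.6 in fracture mice, where the sum of the 6 had medians of 109.6 and 90.7 CPM. The endothelial sum was 89.7 to 116 CPM in sham, 79.0 to 96.6 in fracture and 78.1 to 92.2 in fracture+PDX mice. Of 6 fibroblast markers, *Dcn* was called lower after fracture (-0.33, adjusted p = 0.0331), with a sum of 1754 to 2316 CPM in sham and 1639 to 1882 in fracture mice, and in fracture+PDX mice none was called, with a sum of 1532 to 2203 CPM. Sensory neuron markers were called higher after fracture in 4 of 10 genes, with a sum of 11350 to 12050 CPM in sham and 12710 to 13380 in fracture mice, which did not overlap. In fracture+PDX mice 2 of the 10 were called higher, and the sum of 12030 to 13740 CPM overlapped that of sham mice. Of 5 markers of nonmyelinating Schwann cells, 3 were called higher after fracture (*L1cam*, *Ncam1* and *Ngfr*, which sensory neurons also express) and 2 after fracture with PDX (*L1cam* and *Ncam1*). The part of these markers in the differences of the 8 genes was not tested.

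Myelinating Schwann cell markers had a median log2 fold change of -0.20 after fracture with none of 10 called, and their sum varied within sham mice from 10910 to 24850 CPM, against 12620 to 19520 in fracture mice. Of the hepatocyte markers, which would mark the main source of plasma transferrin, none of 8 was called and the median log2 fold change was -0.96. Their sum was 15.6 to 40.1 CPM in sham and 1.94 to 28.4 in fracture mice, and *Alb* was at 0 to 2.01 CPM. Red cell markers summed to 781 to 2225 CPM in sham, 983 to 1363 in fracture and 504 to 2900 in fracture+PDX mice, with none of 8 called and a median of -0.58 after fracture. The red cell sums of the 3 groups overlapped, and their part in the level of *Hmox1* was not tested. None of the markers of these last 3 cell types was at 3 or fewer counts in every library of a group.

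Of 7 satellite glia markers, none was called after fracture (median 0.07), and 1, *Kcnj10*, was called higher after fracture with PDX (median 0.15). Their sum was 2878 to 3584 CPM in sham, 3350 to 3703 in fracture and 3450 to 4117 in fracture+PDX mice. The markers of neutrophils and of muscle had wide spreads within groups, and where these cells came from was not tested. The 8 neutrophil markers had a median log2 fold change of -0.82 in fracture against sham mice and 1.13 in PDX against fracture, with sums of 74.9 to 338 CPM in sham, 79.9 to 173 in fracture and 71.4 to 431 in fracture+PDX mice. The 8 muscle markers had medians of 2.12 and -1.91 in these comparisons, with sums of 27.5 to 720 CPM in sham, 58.6 to 1374 in fracture and 14.9 to 650 in fracture+PDX mice. No neutrophil or muscle marker was called in any of the 3 group comparisons, and their sums overlapped between all groups. Of the other lists, choroid and ependymal markers had 1 of 4 called lower in fracture+PDX against sham mice (*Folr1*, -1.77), oligodendrocyte markers 1 of 5 tested (*Sox10*, -0.15, which Schwann cells also express), and adipocyte markers none. The part of these lists in the differences of the 8 genes was not tested.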

How the data were processed

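The DRG of 18 CD1 mice, equally divided over groups and sexes, were measured by poly(A)-selected, stranded RNA-seq. The authors deposited reads counted on each of 36737 genes as whole-number counts without normalization, together with FPKM values scaled by transcript length and mapped fragments. The submitters' processing notes name cutadapt 1.10, FastQC, HISAT2, StringTie and mm10, and the table's sham columns carry the prefix Con and were read as sham because no other group had neither fracture nor PDX.

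Tests on the counts were run with edgeR 4.0.16 under R 4.3.3, using filterByExpr (minimum count 10, minimum total 15), TMM, a robust quasi-likelihood fit of sex and group on the 12 libraries of a comparison, and Benjamini-Hochberg adjustment over all genes tested. SE and 95% intervals come from the quasi-likelihood statistic. CPM used TMM library sizes, and log2 CPM a prior count of 2. Correlations used 100000 permutations of deviations from the mean of each group and sex (two-sided, scipy 1.17.1), and exact permutations within group and sex were added after seeing the data. *Trf* was left out of the tests between groups. The fit was tested on data simulated for fracture against sham mice. It called 28.8% of changes of 1.25-fold, 44.4% of 1.5-fold and 63.1% of 2-fold. False calls numbered 7 among 20279 genes tested. A gene that was not called can therefore still differ between groups. Each library was taken as 1 mouse, so that p-values measure the spread between libraries, and no batch is named in the labels. Between 63235040 and 82824942 reads per library set the counting error.

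The 8 genes, the iron lists and the marker lists were chosen with earlier results of these data known. Named are the 8 genes, members of the wider iron lists with an adjusted p under 0.05 (at most 10 per comparison, by p), *Heph*, *Tfr2*, *Ncoa4*, *Hamp*, *Slc39a14*, *Hmox2*, *Aco1* and *Ireb2*, and the 6 genes most like *Trf* among those tested in all 3 group comparisons with a mean of at least 5 CPM. Marker genes and pseudogenes named beside them were chosen after their values were seen. Alternatives were DESeq2 1.42.0, upper-quartile scaling, no filter, a minimum of 10 counts in every library, a model without sex, all 18 libraries in 1 fit, a block for mice that share sex and number, limma 3.58.1 on log2(FPKM + 1) and log2(FPKM + 0.1), and leaving out each mouse. The table holds no per-sample column without a sample.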

Additional observations from a re-analysis of the deposited data

Results flagged for a closer look

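Within each group of 6 mice, the highest and the lowest value of each of the 8 genes was compared with its nearest neighbor, and 2 of the 24 groups held a mouse whose gap was above 0.625 of the range of its group. Chance alone marks about 1 in 20 such groups. *Slc11a2* was lowest in the Fracture+PDX male 1, with 24.36 CPM, against 30.43 CPM in the next mouse, a gap of 0.682 of the range. In fracture+PDX against sham mice, *Slc11a2* was not called with any single mouse left out. Its log2 fold change then ran from 0.07 to 0.16. *Hmox1* was highest in the Fracture female 1, with 35.77 CPM, against 29.92 CPM in the next mouse, a gap of 0.735 of the range. *Hmox1* was called lower after fracture with and without this mouse.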

How the results depend on the processing

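*Hmox1* was called lower than in sham mice in both fracture groups under all 9 alternatives and with each of 12 mice left out. *Slc40a1* was called in fracture mice under 8 of 9 alternatives and in 11 of 12 fits that left out a mouse, and in fracture+PDX mice under all of them. Its log2 fold change came to -0.21 and -0.22 on the log2(FPKM + 1) scale, which understates the change of low genes. Whether the numbers of the mice pair them was not settled. The correlation of the deviations of mice with the same sex and number was -0.04 to 0.06 for fracture and sham. It was -0.08 to 0.15 for PDX and fracture and -0.08 to 0.09 for PDX and sham. In that order, 4, 4 and 1 of 6 mice correlated best with their own number, out of 3 of the same sex. With these numbers as a replicate block, 25 genes were called higher and 93 lower in fracture and 213 and 273 in fracture+PDX against sham mice. Of the 7 genes other than *Trf*, the block left 1 called in fracture mice, where *Slc40a1* had an adjusted p = 0.0501, and 2 in fracture+PDX mice.

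With DESeq2, the counts of genes called higher and lower rose to 606 and 905 in fracture and 803 and 817 in fracture+PDX against sham mice, 9 and 6 in PDX against fracture, 139 and 193 in females against males, 27 and 38 for the interaction of sex and fracture, and 4 and 4 for that of sex and PDX. With limma at an FPKM pseudocount of 1 and of 0.1, 116 and 119 genes were higher in fracture and 232 and 243 in fracture+PDX against sham mice. Without a filter, 13 genes were higher in females, and with at least 10 counts in every library 0 were called for sex and PDX. The causes were not tested.

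Leaving out 1 mouse gave 68 to 292 genes higher and 145 to 463 lower in fracture, 217 to 494 and 281 to 514 in fracture+PDX against sham mice, and 0 to 1 lower in PDX against fracture. The former counts moved by over 1.5 times without any of the Sham males 2 and 3, Sham females 1 and 2, Fracture males 1, 2 and 3, and Fracture females 2 and 3. Those of fracture+PDX against sham mice did so without the Sham males 2 and 3, Sham female 2, Fracture+PDX males 2 and 3, or Fracture+PDX female 1. Of the 7 genes other than *Trf*, 1 to 3 were called in fracture mice when a mouse was left out. Directions changed in values that were not called or not tested: *Cp* in fracture against sham mice (-0.142 to 0.0177), *Trf* (-0.0276 to 0.106), *Slc40a1* (-0.0926 to 0.0578) and *Cp* (-0.140 to 0.0173) in PDX against fracture, and *Fth1* in fracture+PDX against sham mice (-0.0271 to 0.0898). At 214 to 615 counts in a library, *Slc40a1* has the largest counting error of the 8 genes.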
